A study of Homo sapiens with 32 samples.

Results

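A pair of distal elements of chromosome arm 18q, named 18qE and 18qNE, were deleted in separate clonal lines of the colorectal cancer cell line HCT116, and the genes that moved alike or in opposite directions after both deletions are described here. The groups were 2 18qE deletion clones (clones 1 and 2, RNA extracted on day D), set against 2 control libraries of day D labelled control clones 1 and 2, and 3 18qNE deletion clones (clone 1 on day A, clone 2 on day B, clone 3 on day A), set against control clones 1 to 4, each sampled on days A and B. Deletion clones had received Cas9-GFP with guide RNAs against the element, and control clones Cas9-GFP with an empty guide vector. All were sorted for high GFP and grown from single cells, so each line is 1 clone, and whether a difference belongs to the element or to the clone cannot be told apart within a line. These were 15 of the 32 samples of the series, and transcript counts per gene were measured in all 15. Of 15044 genes tested in both comparisons, 53 (0.352%) had an unadjusted p under 0.05 in each. They were taken as members because no gene passed the adjusted threshold in either comparison alone with edgeR.

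HCT116 cells carry the epithelial programme of the colon in an incomplete form. The 18q21 region holds SMAD7, which encodes an inhibitor of TGF-beta signalling, and common variants in that gene are associated with colorectal cancer risk. TGF-beta receptors pass their signal to SMAD2 and SMAD4, which are also encoded on 18q, and SMAD7 blocks the receptors as a feedback. Where the deleted elements lie is not given in the labels. HCT116 is known for defects of a TGF-beta receptor gene caused by its mismatch repair deficiency.

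Gene counts per library totalled 24887785 and 23087502 in the 18qE clones, and 24733705 and 22972412 in the day D controls. They totalled 11383373 to 14079432 in the 18qNE clones and 10724569 to 14445320 in the controls of days A and B. Reads aligned at several places made up 18.5% and 24.8% of counted reads in the 18qE clones, against 18.8% and 15.6% in the day D controls. The summed level of 10 colon epithelial markers was 5152 to 5187 CPM (a library's counts scaled to a common total of gene counts, the usual CPM) in the 18qE clones and 5549 to 6212 CPM in their controls. It was 4403 to 5801 CPM in the 18qNE clones and 3838 to 5527 CPM in theirs. CDX1, an intestinal transcription factor, had no count in the 18qE clones or the day D controls, and VIL1 and CDH17, markers of the absorptive surface, were below 0.3 CPM in every library. Leukocyte, endothelial, fibroblast and neuronal marker lists each summed to at most 30.3 CPM in every library. The day D control libraries were not clearly nearest to the clones they are labelled as. The library labelled control clone 1 correlated with the 3 libraries of control clone 4 at 0.957 to 0.969 and with those of control clone 1 at 0.907 to 0.914 (Pearson's r of log2 CPM over 1000 variable genes, a description across genes). For all 10 genes that separated control clones 1 and 4 on days A to C, it lay nearer to clone 4. The day D library labelled control clone 2 correlated with control clone 4 at 0.896 to 0.921 and with control clone 2 at 0.893 to 0.915, and it lay nearer to clone 4 for 8 of the 12 genes that separated clones 2 and 4. The 2 comparisons share no library, but by their labels they share control clones 1 and 2.

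SLC2A1 and ZNF608 rose and DNAH2 fell when both deletions were tested together. They were the 3 of 16241 genes (0.0185%) past an adjusted p of 0.05 for the mean of the 2 log2 changes. The mean was tested in 1 joint fit of all 4 groups with edgeR's quasi-likelihood test and Benjamini-Hochberg adjustment. By their labels, control clones 1 and 2 were in both control groups, and the fit treated these entries as independent. At an unadjusted p under 0.05 the mean called 811 genes (4.99%), 490 higher (3.02%) and 321 lower (1.98%), and DESeq2 called 12 of 14798 at an adjusted p of 0.05 (0.0811%). SLC2A1 encodes the glucose transporter GLUT1, ZNF608 a zinc finger protein, and DNAH2 a heavy chain of the dynein motor of cilia. The direction held for all 3 genes in all 19 alternative settings, while SLC2A1 passed in 10 of them, ZNF608 in 6 and DNAH2 in 7. None of the 3 passed without either 18qE clone, without either day D control library, without control clone 1 or 4 of days A and B, or with control clones 3 and 4 as the only 18qNE controls. Without the day D library labelled control clone 1, the mean changes were 0.79 for SLC2A1, 1.92 for ZNF608 and -2.14 for DNAH2. The promoters of these genes are shown because they carry the changes past the threshold. Each is the 300 bases around the annotated start in RefSeq (build GRCh38.p14, not the hg19 build of the files), read 5′ to 3′ on the strand of the gene, with capitals where a searched motif matched.
SLC2A1, chr1:42958819-42959118, minus strand: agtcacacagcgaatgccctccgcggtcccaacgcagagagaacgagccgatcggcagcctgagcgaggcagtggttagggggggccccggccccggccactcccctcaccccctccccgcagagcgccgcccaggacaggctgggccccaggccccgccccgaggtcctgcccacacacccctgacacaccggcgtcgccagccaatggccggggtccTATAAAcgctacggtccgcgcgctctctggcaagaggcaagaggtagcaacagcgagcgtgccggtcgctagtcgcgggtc
ZNF608, chr5:124748775-124749074, minus strand: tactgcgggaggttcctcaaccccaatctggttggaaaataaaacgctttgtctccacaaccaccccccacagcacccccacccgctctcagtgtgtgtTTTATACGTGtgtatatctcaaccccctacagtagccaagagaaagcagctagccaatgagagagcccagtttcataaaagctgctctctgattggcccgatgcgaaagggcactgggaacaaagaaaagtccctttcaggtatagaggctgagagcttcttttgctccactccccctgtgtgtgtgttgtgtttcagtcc
DNAH2, chr17:7717494-7717793, plus strand: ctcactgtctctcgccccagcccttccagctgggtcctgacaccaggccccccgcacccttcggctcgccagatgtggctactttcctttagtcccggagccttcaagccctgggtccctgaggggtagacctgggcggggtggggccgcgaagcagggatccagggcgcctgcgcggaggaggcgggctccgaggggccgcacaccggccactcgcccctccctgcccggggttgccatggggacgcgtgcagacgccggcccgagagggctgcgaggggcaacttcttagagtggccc
The motifs searched on both strands were ACGTG (1 form of the core bound by hypoxia-inducible factors), TGANTCA (AP-1), GTCTAGAC (a SMAD palindrome), GGAATG (TEAD) and TATAAA (the TATA box). Other forms of the hypoxia-inducible factor core were not searched. SLC2A1 had 1 TATAAA match, on the strand of the gene. ZNF608 had 1 TATAAA match, on the opposite strand (TTTATA as printed), and 1 ACGTG match, and they overlap in the capital run. Matches were counted anywhere in the window, so a match alone does not make a TATA box. DNAH2 had no match in this window. Of 35116 promoters of the same length, 21.4% held ACGTG, 7.71% TGANTCA, 0.202% GTCTAGAC, 14.03% GGAATG and 11.5% TATAAA. Of the 26 members higher in both deletions with a promoter in the table, 7 held ACGTG (26.9%), 1 TGANTCA (3.85%), 0 GTCTAGAC, 2 GGAATG (7.69%) and 4 TATAAA (15.4%).

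SLC2A1 (ENSG00000117394.15) had 523 and 596 CPM in the 18qE clones, against 381 and 369.7 CPM in the day D controls. In the 18qNE clones it had 655, 551 and 785 CPM, against 307 (lowest), 329 (median) and 410.0 CPM (highest) in the 8 control libraries of days A and B. Every deletion library lay above every control library of its own comparison. The log2 change was 0.61 (SE 0.15, unadjusted p = 0.00352) for 18qE and 0.97 (SE 0.11, unadjusted p = 8.74e-06) for 18qNE, and their mean in the joint fit was 0.79 (SE 0.09, adjusted p = 0.0292). SLC2A1 had the lowest adjusted p of all genes in the 18qNE comparison, 0.136. Its mean change lay between 0.72 and 0.84 over 19 alternative settings.

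ZNF608 (ENSG00000168916.11) had 5.10 and 9.10 CPM in the 18qE clones, against 1.54 and 1.22 CPM in the day D controls. It had 7.12, 11.4 and 14.3 CPM in the 18qNE clones, against 2.55, 3.54 and 8.63 CPM (lowest, median and highest) in the controls of days A and B. The 18qE groups did not overlap, whereas 1 18qNE clone lay below the highest control library. Both day D controls lay below every control library of days A and B. 18qE clone 1, at 5.10 CPM, lay within the range of those libraries. The changes were 2.38 (SE 0.36, unadjusted p = 0.000237) for 18qE and 1.31 (SE 0.27, unadjusted p = 0.000719) for 18qNE, and the joint mean was 1.84 (SE 0.24, adjusted p = 0.0369).

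DNAH2 (ENSG00000183914.10) had 1.00 and 1.47 CPM in the 18qE clones, against 3.76 and 3.18 CPM in the day D controls. It had 0.703, 0.639 and 0.225 CPM in the 18qNE clones, against 1.58, 4.08 and 6.81 CPM in the controls of days A and B (lowest, median and highest). Neither comparison overlapped. The changes were -1.46 (SE 0.34, unadjusted p = 0.00315) for 18qE and -2.93 (SE 0.41, unadjusted p = 3.64e-05) for 18qNE, with a joint mean of -2.20 (SE 0.28, adjusted p = 0.0369). ZNF608 and DNAH2 were the 2 genes past the joint threshold whose change was at least 1 on the log2 scale in both deletions.

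**Figure D1:**
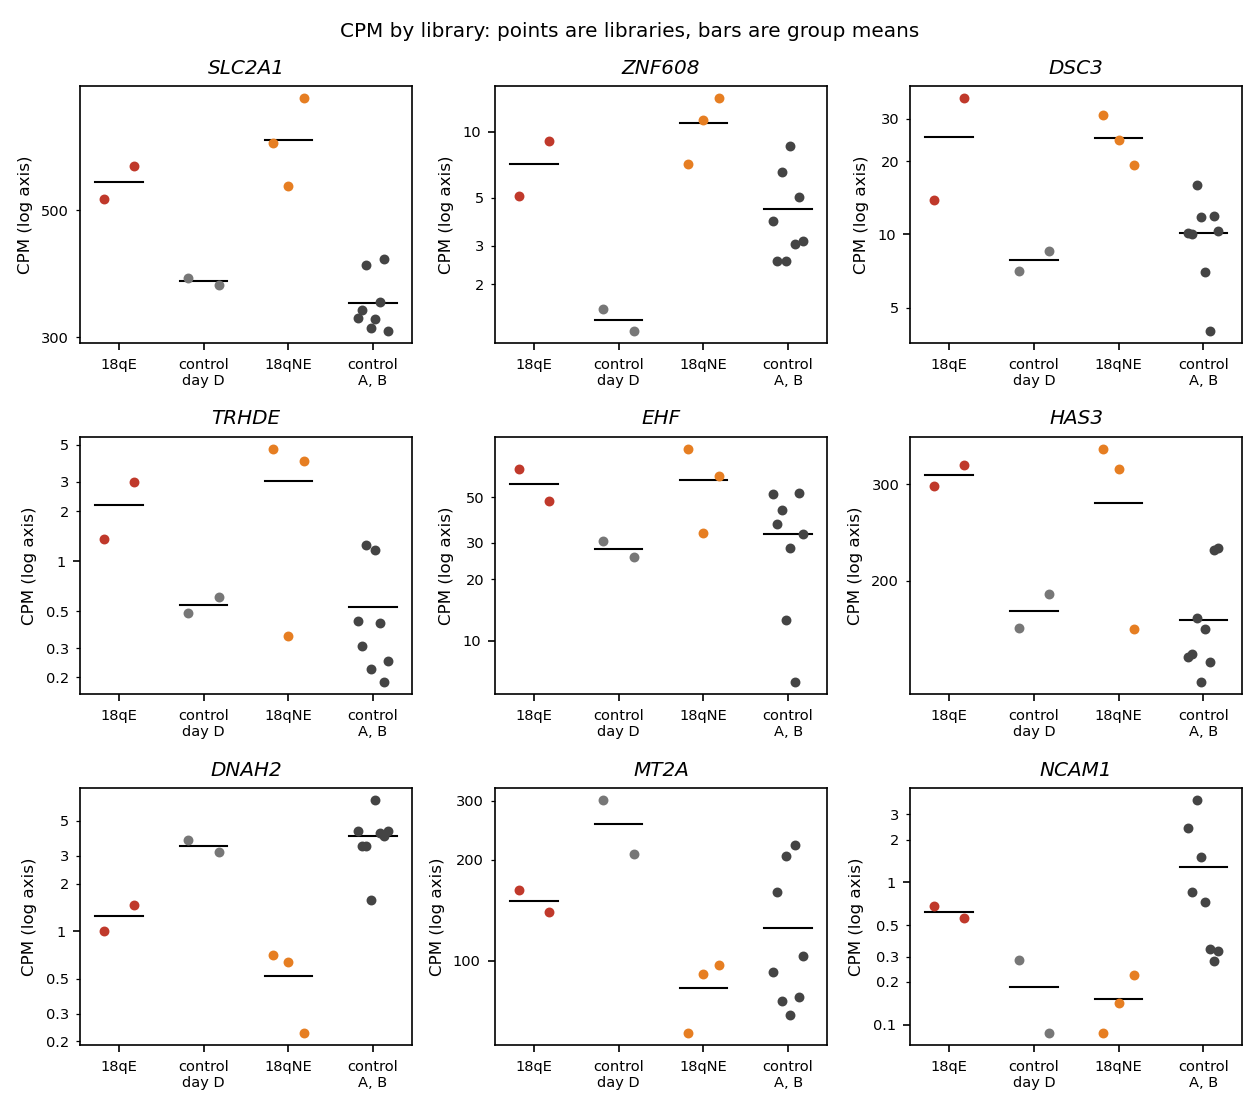
CPM of 9 genes (log axes) in 18qE clones, day D controls, 18qNE clones and control libraries of days A and B; points are libraries and bars group means. SLC2A1 and DNAH2 show no overlap in either comparison, HAS3 and TRHDE each have 1 18qNE clone among the control libraries, and NCAM1 lies on opposite sides of its controls in the 2 deletions.

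Tested one at a time, the comparisons called no gene with edgeR's quasi-likelihood test at an adjusted p of 0.05. In 18qE, 0 of 15261 genes passed (0%), and 391 (2.56%) had an unadjusted p under 0.05, 256 of them higher (1.68%) and 135 lower (0.885%). In 18qNE, 0 of 15524 passed (0%), and 505 (3.25%) had an unadjusted p under 0.05, 316 higher (2.04%) and 189 lower (1.22%). DESeq2 called 20 of 20928 genes (0.0956%) in 18qE and 13 of 18778 (0.0692%) in 18qNE. Its calls in both comparisons were DSC3 and ZNF608, both higher. With adjusted p from DESeq2, DSC3 was at 1.70 (SE 0.36, adjusted p = 0.00419) in 18qE and 1.31 (SE 0.28, adjusted p = 0.00562) in 18qNE. ZNF608 was at 2.38 (SE 0.43, adjusted p = 0.000261) in 18qE and 1.30 (SE 0.29, adjusted p = 0.0107) in 18qNE. The median standard error of a gene's log2 change was 0.22 for 18qE and 0.16 for 18qNE, so small shared changes were not detectable with these clones.

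Of the 53 genes under an unadjusted p of 0.05 in both, 39 were higher in both (0.259% of 15044), 9 were lower in both (0.0598%) and 5 moved in opposite directions (0.0332%). These p-values chose the members and are given as a description. The counts moved with single clones, to 90 alike and 10 opposite without 18qE clone 1, 28 and 8 without the day D library labelled control clone 1, and 30 and 3 without control clone 3 of days A and B. The 48 alike genes had changes between 0.36 and 2.38 in size for 18qE and between 0.23 and 2.93 for 18qNE. In 10 of them both changes were at least 1, and in 36 the change was larger in 18qE. In 38 of them the higher group averaged 5 CPM or more in both comparisons. All 48 separated the 18qE clones from the day D controls, which the choice of members favours with 2 clones a side. Over all genes tested in both, 10.5% separated upward and 16.7% downward there. In 9 of the 48 the 18qNE clones also lay outside all 8 control libraries, against 0.279% of all genes upward and 0.465% downward, which the choice of members favours too. Over all genes, 13 (0.0864%) separated upward in both and 20 (0.133%) downward in both. The 9 members were DSC3, MGLL, SLC2A1, TSPAN14, SLC39A8 and ZNF562 upward, and DNAH2, AMT and TXNRD2 downward. At the edge of the rule, FAM107B was just inside, with edgeR unadjusted values of 0.0131 in 18qE and 0.0498 in 18qNE, as was MSANTD3, with 0.0495 and 0.0281. Just outside were SAMD5, with 0.0127 and 0.0507, and PHIP, with 0.0514 and 0.0347.

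**Figure D2:**
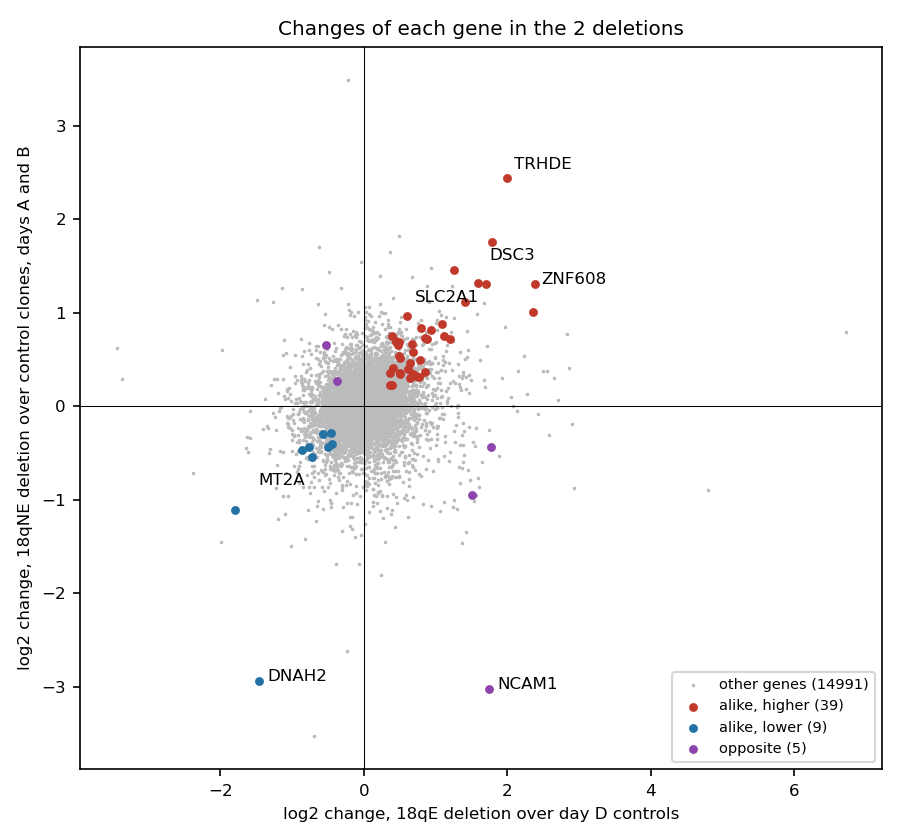
Log2 change of each of the 15044 genes tested in both comparisons, in 18qE over day D controls (x axis) and 18qNE over control clones (y axis). Coloured points are the 39 genes higher in both, the 9 lower in both and the 5 opposite ones; TRHDE, ZNF608 and DSC3 lie at the upper right and DNAH2 at the lower left.

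Among cell adhesion genes higher in both, DSC3 and CDH1 encode cadherins of desmosomes and of adherens junctions. DSC3 (chromosome 18) had 13.9 and 36.6 CPM in the 18qE clones, against 7.08 and 8.58 CPM in the day D controls. It had 31.1, 24.5 and 19.3 CPM in the 18qNE clones, against 3.99, 10.3 and 16.1 CPM in the controls of days A and B (lowest, median and highest). Neither comparison overlapped, and 18qE clone 2 was far above 18qE clone 1. The edgeR changes were 1.70 (SE 0.40) and 1.31 (SE 0.27), and the joint mean did not pass (adjusted p = 0.471). CDH1, which encodes E-cadherin, had 75.6 and 121 CPM in the 18qE clones, against 62.8 and 57.9 CPM in the day D controls. It had 116, 87.1 and 98.2 CPM in the 18qNE clones, against 51.3, 80.7 and 114 CPM in theirs, so that 2 of the 18qNE clones lay within the control range. The day A control libraries had 77.6 to 114 CPM of CDH1 and the day B ones 51.3 to 83.7 CPM. 18qNE clones 1 and 3 were from day A, and clone 2, of day B, lay above the day B controls. MGAT5, which encodes an enzyme that branches the sugar chains of surface proteins, had smaller changes of 0.37 (SE 0.14) and 0.23 (SE 0.10).

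HAS3 and CEMIP2 encode proteins that make and degrade hyaluronan, a sugar polymer of the extracellular matrix. HAS3 had 298 and 326 CPM in the 18qE clones, against 164 and 189 CPM in the day D controls. It had 348, 319.9 and 164 CPM in the 18qNE clones, against 131, 155 and 229 CPM in the controls of days A and B (lowest, median and highest). Clones 1 and 2 of 18qNE lay above all 8 control libraries and clone 3 lay among them. The changes were 0.85 (SE 0.15) and 0.73 (SE 0.25). CEMIP2 was at 0.49 (SE 0.18) and 0.69 (SE 0.20).

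Other members higher in both encode transcriptional regulators. EHF, an epithelial ETS family factor, had 68.3 and 47.8 CPM in the 18qE clones, against 30.6 and 25.6 CPM in the day D controls. It had 86.2, 33.5 and 63.3 CPM in the 18qNE clones, against 6.28, 35.0 and 52.2 CPM in the controls of days A and B, with clone 2 inside the control range. Its lowest value was in a library of control clone 3, and the control clones differed widely. The changes were 1.09 (SE 0.22) for 18qE and 0.88 (SE 0.34) for 18qNE. TFAP2A, the AP-2 alpha factor of epithelial and neural crest cells, was at 0.94 (SE 0.23) and 0.82 (SE 0.31). TLE1, a co-repressor of the Groucho family, was at 0.85 (SE 0.20) and 0.36 (SE 0.16). CDK6, a kinase that drives entry into the cell cycle, had 85.7 and 96.6 CPM in the 18qE clones, against 29.9 and 71.1 CPM in the day D controls. It had 98.2, 118 and 121 CPM in the 18qNE clones, against 35.8, 59.2 and 112 CPM in their controls, and clone 1 lay within the control range.

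Further members higher in both encode ligands or membrane transporters. TGFA, a ligand of the EGF receptor, had 74.3 and 57.9 CPM in the 18qE clones, against 42.9 and 53.3 CPM in the day D controls. It had 85.2, 65.1 and 55.1 CPM in the 18qNE clones, against 36.3, 46.6 and 59.3 CPM in theirs, with clone 3 inside the control range. The day A control libraries had 44.3 to 59.3 CPM of TGFA and the day B ones 36.3 to 48.9 CPM. 18qNE clones 1 and 3 were from day A, and clone 2, of day B, lay above the day B controls. EFNB2, the membrane ligand ephrin-B2, was at 0.45 (SE 0.15) and 0.69 (SE 0.21). Of the transporters besides SLC2A1, SLC39A8 carries zinc and manganese, SLC1A3 glutamate and SLCO4A1 organic anions such as thyroid hormone. SLC39A8 had 29.1 and 45.7 CPM in the 18qE clones, against 26.0 and 21.4 CPM in the day D controls. It had 49.9, 44.0 and 42.5 CPM in the 18qNE clones, against 27.2, 37.6 and 41.4 CPM in theirs, and neither comparison overlapped. SLC1A3 was at 0.79 (SE 0.33) and 0.49 (SE 0.21), but with day A libraries alone its 18qNE change was -0.01. SLCO4A1 was at 0.36 (SE 0.14) and 0.36 (SE 0.14).

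TSPAN14, a tetraspanin that escorts the protease ADAM10, had 120.4 and 175 CPM in the 18qE clones, against 112 and 104 CPM in the day D controls. It had 223, 201 and 168 CPM in the 18qNE clones, against 105, 128 and 154 CPM in theirs. The groups did not overlap in either comparison, and the joint mean of 0.56 (SE 0.11) did not pass (adjusted p = 0.624). MGLL, which encodes monoacylglycerol lipase, had 19.1 and 18.0 CPM in the 18qE clones, against 7.32 and 14.6 CPM in the day D controls. It had 11.4, 17.8 and 11.9 CPM in the 18qNE clones, against 5.63, 7.85 and 10.5 CPM in theirs, again without overlap.

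Several genes higher in both were of low level. TRHDE encodes a peptidase that degrades thyrotropin-releasing hormone. It had 1.37 and 2.99 CPM in the 18qE clones, against 0.485 and 0.609 CPM in the day D controls. It had 4.74, 0.355 and 3.98 CPM in the 18qNE clones, against 0.186, 0.367 and 1.25 CPM in the controls of days A and B, so clone 2 lay at the control median. The changes were 2.00 (SE 0.48) and 2.44 (SE 0.67). TRHDE-AS1, the antisense gene of TRHDE, was at 1.79 (SE 0.44) and 1.75 (SE 0.50). No source used here states whether counting used the strand, so reads of TRHDE and TRHDE-AS1 cannot be told apart. SLPI, a secreted inhibitor of leukocyte proteases, was at 1.59 (SE 0.45) and 1.32 (SE 0.41), with at most 2.69 CPM in any of these libraries. CA8, which encodes a carbonic anhydrase relative without enzyme activity, was at 1.42 (SE 0.31) and 1.11 (SE 0.32), and its joint mean of 1.26 (SE 0.25) did not pass (adjusted p = 0.818). The other 17 genes higher in both lay between 0.39 and 2.35 for 18qE and between 0.23 and 1.45 for 18qNE. PFN1P8 among them is a profilin pseudogene whose reads may come from its parent gene.

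**Figure D3:**
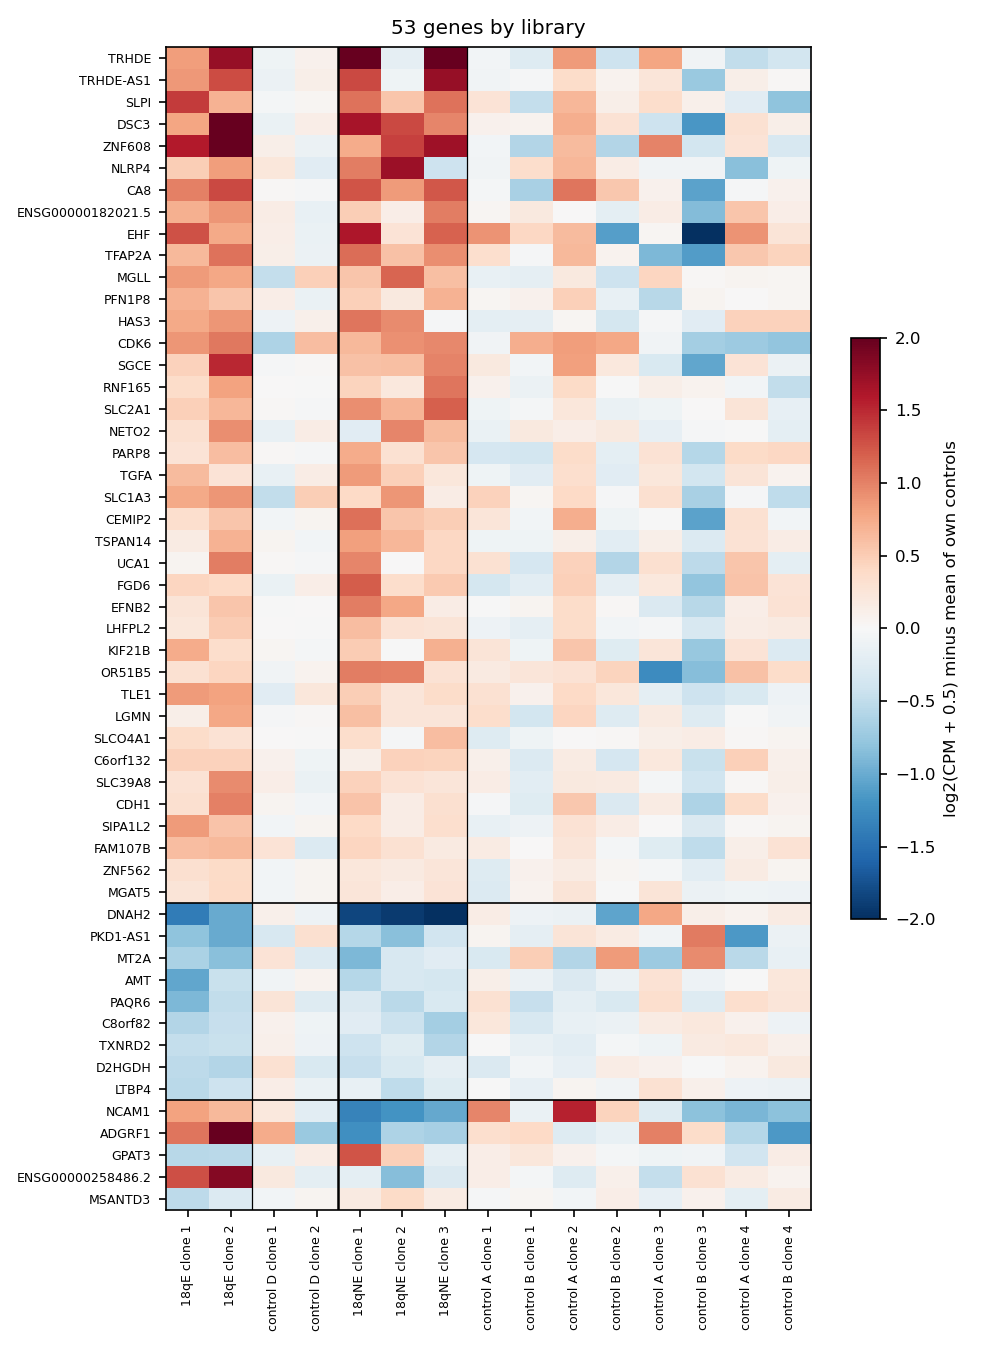
Log2(CPM + 0.5) of the 53 genes in each library, minus the mean of the controls of the same comparison. Columns from left are 18qE clones, day D controls, 18qNE clones and control libraries of days A and B; rows from top are the 39 genes higher in both, the 9 lower in both and the 5 opposite ones, and control clone 3 on day B is low for EHF, DSC3 and TFAP2A.

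MT2A, lower in both, encodes a metallothionein that binds zinc and copper. It had 162 and 139.8 CPM in the 18qE clones, against 302 and 208 CPM in the day D controls. It had 60.9, 91.7 and 97.3 CPM in the 18qNE clones, against 69.1, 98.0 and 221 CPM in theirs. The day A control libraries had 69.1 to 92.7 CPM and the day B ones 103 to 221 CPM, and 2 of the 3 18qNE clones were from day A. The changes were -0.72 (SE 0.21) for 18qE and -0.55 (SE 0.19) for 18qNE, and with day A libraries alone the 18qNE value was 0.02. Reads shared with near-identical metallothionein genes make it uncertain as a single gene.

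TXNRD2, the mitochondrial thioredoxin reductase, had 15.1 and 15.5 CPM in the 18qE clones, against 22.9 and 19.8 CPM in the day D controls. It had 14.7, 16.5 and 12.9 CPM in the 18qNE clones, against 16.9, 19.4 and 22.8 CPM in theirs, without overlap in either comparison. AMT, the aminomethyltransferase of mitochondrial glycine cleavage, was at -0.86 (SE 0.36) and -0.47 (SE 0.20), also without overlap. D2HGDH, which oxidises D-2-hydroxyglutarate in mitochondria, was at -0.56 (SE 0.24) and -0.30 (SE 0.12). LTBP4, which binds latent TGF-beta in the matrix, had 107 and 117 CPM in the 18qE clones, against 171 and 142 CPM in the day D controls. It had 159, 124 and 149 CPM in the 18qNE clones, against 158, 172 and 217 CPM in theirs, and 1 18qNE clone overlapped the lowest control. The other members lower in both were PKD1-AS1, PAQR6 and C8orf82. PKD1-AS1 is antisense to PKD1, from whose reads it cannot be told apart.

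The difference of the 2 changes was tested for every gene by the interaction contrast of the joint fit. With edgeR, 0 of 16241 genes passed (0%), and 276 (1.70%) had an unadjusted p under 0.05, 162 of them higher in 18qE than in 18qNE (0.997%) and 114 lower (0.702%). DESeq2 called 1 of 32376 (0.00309%), ENSG00000258486.2, at a difference of 2.22 (SE 0.35, adjusted p = 6.98e-06 by DESeq2). The same gene had the lowest adjusted p by edgeR, 0.454, which did not pass. It is 1 of the 5 opposite genes, and the name tables used here do not annotate it. It had 6.95 and 10.4 CPM in the 18qE clones, against 2.99 and 2.18 CPM in the day D controls. It had 7.55, 4.62 and 7.06 CPM in the 18qNE clones, against 6.15, 9.30 and 10.9 CPM in the controls of days A and B. The 18qE clones thus lay in the range of the other controls, and the day D controls were the low group.

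NCAM1, a neural cell adhesion molecule, was the opposite gene without overlap on either side. It had 0.683 and 0.563 CPM in the 18qE clones, against 0.283 and 0.0871 CPM in the day D controls. It had 0.0878, 0.142 and 0.225 CPM in the 18qNE clones, against 0.280, 0.792 and 3.81 CPM in theirs. The changes were 1.74 (SE 0.61) and -3.02 (SE 0.94), at a level of few counts. Over all genes tested in both, 0.0266% were higher in 18qE and lower in 18qNE without overlap. ADGRF1, an adhesion G protein-coupled receptor, was at 1.52 (SE 0.50) and -0.95 (SE 0.35). It had 16.2 and 31.9 CPM in the 18qE clones, against 12.8 and 4.22 CPM in the day D controls. In the 18qNE clones it had 11.2, 17.3 and 16.8 CPM, against 11.8, 29.2 and 54.7 CPM in theirs. For NCAM1 and ADGRF1 alike, the 18qE clones lay within the range of the controls of days A and B. Lower in 18qE and higher in 18qNE were GPAT3, an enzyme of triglyceride synthesis, at -0.53 (SE 0.17) and 0.65 (SE 0.27), and MSANTD3, at -0.37 (SE 0.16) and 0.27 (SE 0.10). GPAT3 had 79.9, 46.0 and 29.1 CPM in the 18qNE clones, against 25.3, 33.5 and 38.4 CPM in theirs, so clone 3 lay among the controls. None of these 4 passed the test of the difference (adjusted p = 1.00 by edgeR for each after rounding). With control clones 3 and 4 as the only 18qNE controls, 0 genes met the rule for opposite members.

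SMAD7, the TGF-beta inhibitor gene of 18q21, was not among the members. It had 8.80 and 9.96 CPM in the 18qE clones, against 9.95 and 9.58 CPM in the day D controls. It had 13.2, 12.7 and 12.4 CPM in the 18qNE clones, against 6.75, 9.28 and 12.7 CPM in theirs. The changes were -0.03 (SE 0.22) for 18qE and 0.38 (SE 0.16, unadjusted p = 0.0394) for 18qNE, and their difference of -0.40 (SE 0.25) did not pass. Of 26 tested genes of an 18q21 neighbourhood list, none passed by edgeR in either comparison, and the medians were 0.04 and -0.01. At an unadjusted p under 0.05 the list had 0 genes in 18qE and 1 in 18qNE, SMAD7, beside 2.56% and 3.25% of all genes tested in each. SMAD2 was at 0.05 (SE 0.15) and 0.12 (SE 0.12), and SMAD4 at -0.13 (SE 0.16) and 0.06 (SE 0.10).

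Gene lists chosen by function were described by their medians and counts, beside medians over all 15044 genes of 0.003 for 18qE and 0.014 for 18qNE. The 34 hypoxia response and glycolytic genes had medians of 0.60 for 18qE and 0.24 for 18qNE. In 18qE 33 of the 34 were above 0 (97.1%, against 50.7% of all genes), and in 18qNE 32 were (94.1%, against 53.9%). At an unadjusted p under 0.05, 10 were higher in 18qE and 2 in 18qNE, and none was lower in either, beside 1.68% and 2.04% of all genes higher. SLC2A1 was the one in both. HK2, which phosphorylates glucose, was at 0.83 (SE 0.22) and 0.32 (SE 0.17), and NDRG1, a hypoxia-inducible gene, at 1.16 (SE 0.24) and 0.76 (SE 0.50). CA9, a hypoxia-inducible carbonic anhydrase, was at 2.08 (SE 0.76) in 18qE and 0.00 (SE 0.56) in 18qNE. One clone carried the 18qE value, since without 18qE clone 2 the list median was -0.04, and it was 0.39 without the day D library labelled control clone 1. 18qE clone 2 also had the highest share of reads aligned at several places, and the part of that in the result was not tested. Without 18qNE clone 1 the 18qNE median was 0.06, and without control clone 4 of days A and B it was 0.14. Summed CPM of the list were 15053 and 20441 in the 18qE clones, against 15330 and 15724 in the day D controls. They were 17601, 15157 and 15762 in the 18qNE clones, against 12969 to 16382 in theirs.

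The 37 epithelial junction genes had medians of 0.23 and 0.10. In 18qE 31 were above 0 (83.8%) and in 18qNE 32 (86.5%), with 6 and 5 higher and none lower at an unadjusted p under 0.05 (1.68% and 2.04% of all genes were higher), and CDH1 was the one in both. DSC2, a desmosomal cadherin like DSC3, was at 0.91 (SE 0.46) and 1.12 (SE 0.31), and ESRP1, an epithelial splicing factor, at 0.26 (SE 0.18) and 0.42 (SE 0.14). KRT20, an intestinal keratin, was at 1.54 (SE 0.32) in 18qE and -1.01 (SE 0.66) in 18qNE. The 18qE median was 0.12 without 18qE clone 2, and the 18qNE median 0.001 without 18qNE clone 1. Summed CPM of the list were 8339 and 8979 in the 18qE clones, against 9223 and 8606 in the day D controls, which overlap. They were 8698, 9062 and 7947 in the 18qNE clones, against 7241 to 8686 in theirs, which overlap too. The 40 immediate early and MAPK output genes had medians of 0.23 and 0.21, with 4 and 2 higher and none lower at an unadjusted p under 0.05, beside the same shares of all genes. TGFA was the one in both, and MAFF, a small transcription factor, was at 0.75 (SE 0.21) and 0.45 (SE 0.27). The 18qE median of this list was 0.04 without 18qE clone 1, and its 18qNE median -0.05 without 18qNE clone 1. The 20 YAP and TEAD targets had medians of 0.22 and 0.18. Their 18qE median was -0.15 without 18qE clone 1 and 0.47 without 18qE clone 2, and their 18qNE median 0.08 without 18qNE clone 1. The 27 TGF-beta induced genes had medians of 0.08 and 0.23. Above 0 were 18 of them in 18qE (66.7%, against 50.7% of all genes) and 19 in 18qNE (70.4%, against 53.9%). TAGLN, an actin-binding protein and the lowest of the list in 18qE, was at -1.59 (SE 0.31) and -0.34 (SE 0.44). That list's 18qE median was -0.03 without 18qE clone 2 and its 18qNE median -0.004 without 18qNE clone 1.

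**Figure D4:**
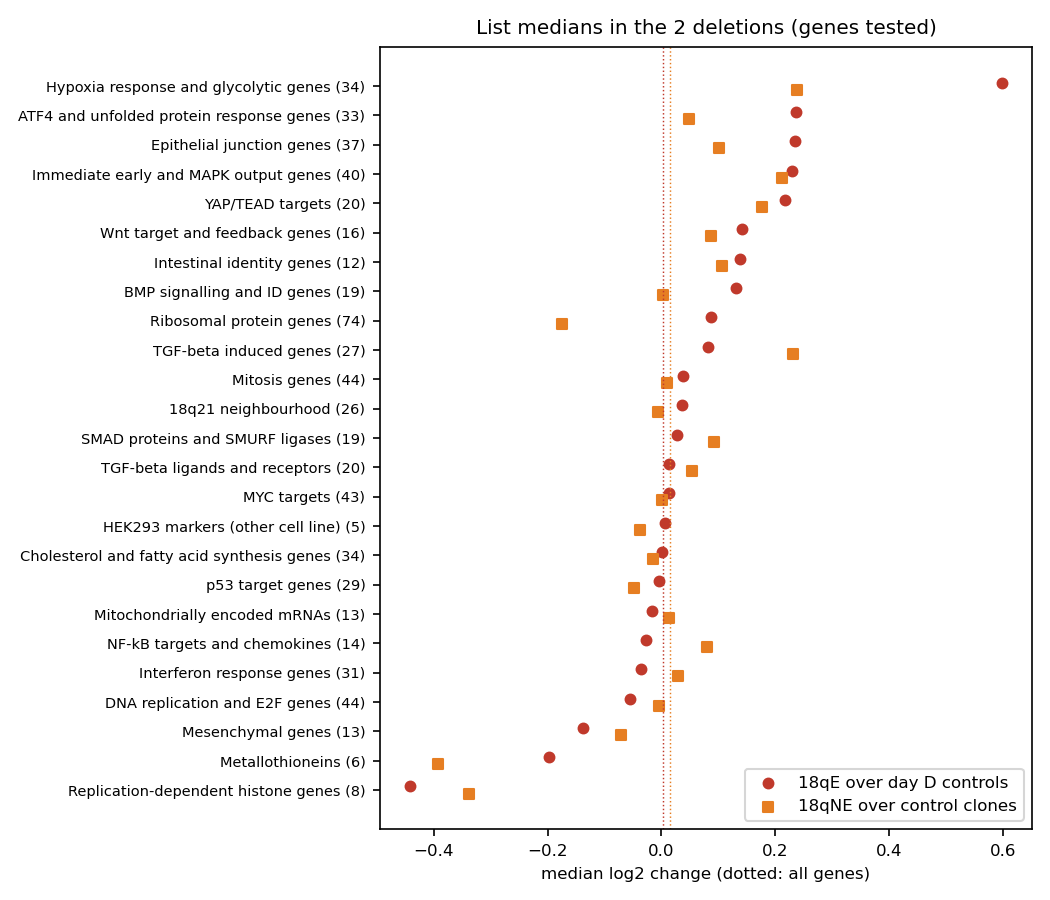
Median log2 change of each gene list with at least 5 genes tested, in 18qE over day D controls (circles) and 18qNE over control clones (squares); dotted lines are the medians of all genes. The hypoxia list is at 0.60 and 0.24, the histone and metallothionein lists are lowest, and ribosomal protein genes lie on opposite sides of 0.

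Histone and metallothionein lists had negative medians of at least 0.1 in size in both. The 8 replication-dependent histone genes tested were at -0.44 and -0.34, with 18qE at -0.27 without 18qE clone 1 and -0.84 without 18qE clone 2, and 18qNE at -0.12 without 18qNE clone 2. The 6 metallothioneins were at -0.20 and -0.39. The metallothionein value for 18qNE was 0.15 with day A libraries alone, as for MT2A. Mesenchymal genes (13 tested) were at -0.14 and -0.07, but at 0.006 for 18qE without 18qE clone 1 and at 0.13 for 18qNE without control clone 3. MYC targets had medians of 0.01 and 0.001, which ran from -0.16 to 0.20 for 18qE and from -0.18 to 0.14 for 18qNE as single clones were left out.

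The 74 ribosomal protein genes lay on opposite sides of 0, with medians of 0.09 for 18qE and -0.18 for 18qNE. In 18qE 71 of the 74 were above 0 (95.9%, against 50.7% of all genes), and in 18qNE 1 was (1.35%, against 53.9%). None was under an unadjusted p of 0.05 in 18qE, beside 2.56% of all genes, and 3 were lower in 18qNE, beside 1.22% of all genes. Changes ran from -0.06 to 0.17 in 18qE and from -0.36 to 0.01 in 18qNE, and the genes share reads with pseudogenes. Summed CPM were 59797 and 54096 in the 18qE clones, against 59976 and 50627 in the day D controls, which overlap. They were 53416, 40165 and 49276 in the 18qNE clones, against 46435 to 64657 in theirs, which overlap too. The 18qE median was -0.03 without 18qE clone 1 and -0.009 without the day D library labelled control clone 2, and the 18qNE median stayed below 0 in all 19 alternative settings, at -0.28 to -0.08.

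**Figure D5:**
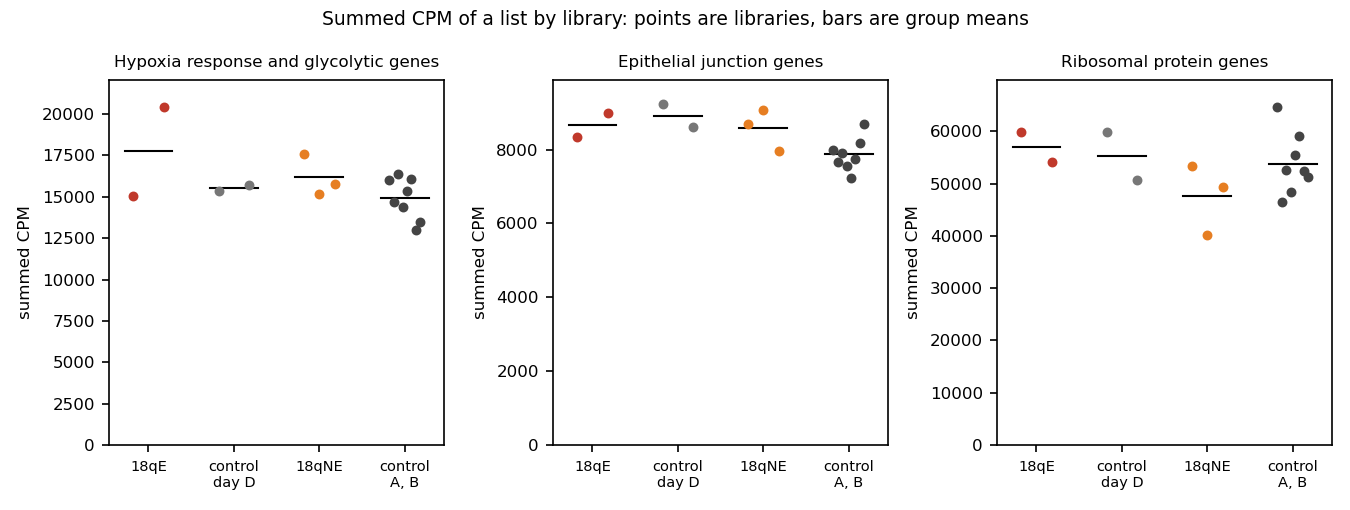
Summed CPM of 3 gene lists by library in 18qE clones, day D controls, 18qNE clones and control libraries of days A and B; bars are group means and the axes start at 0. For hypoxia and glycolytic genes 18qE clone 2, at 20441 CPM, stands above all other libraries shown. 18qE clone 1, at 15053 CPM, lies below both day D controls, at 15330 and 15724 CPM, and within the range of the controls of days A and B.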

How the data were processed

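RNA was extracted from clonal HCT116 lines with Trizol and made into single-end TruSeq v2 libraries, per the labels' protocols. The authors deposited 1 file per library with whole-number read counts per gene (57820 genes, 39538 with a symbol in the name tables used here). The tools named in the submitters' processing notes are HTSeq 0.6.1, TopHat2, BWA 0.6.2, Partek 3, bedtools, CASAVA and bcl2fastq, and the build is hg19. No order of the tools and no strand setting is stated there. The 5 summary lines of each file (reads outside genes, 6.34% to 11.7% of counted reads; ambiguous, 2.86% to 3.60%; aligned at several places, 12.5% to 24.8%; and 2 others) stayed out of library sizes and tests. Chromosomes came from NCBI tables of GRCh38.p14, which placed 51 of the 53 genes.

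Counts were tested with edgeR 4.0.16 in R 4.3.3 (2-sided quasi-likelihood F test with TMM scaling; genes kept by filterByExpr at a minimum count of 10) and Benjamini-Hochberg adjustment over all genes tested, at 0.05. The clone was the replicate, and control counts of days A and B were summed per clone for the 18qNE test. P-values of the separate tests therefore measure the spread between these units. For 18qNE that spread includes the day, since each deletion clone was from a single day and the test had no day term. For 18qE it is a spread between clones only if the day D control libraries are the clones they are labelled as. A joint fit of the 4 groups (11 clones or sums) tested the mean and the difference of the 2 changes, 18qE minus 18qNE. In it control clones 1 and 2, by their labels, entered as day D libraries and again as sums of days A and B. These entries were treated as independent, so the joint p-values do not measure the spread between clones alone. Changes are deletion over control on the log2 scale. The steps were tested on simulated data. DESeq2 1.42.0, RLE factors, no filter, other control clones, a day term, a replicate block and leaving out each clone were tried. The 29 lists, the rules and the genes were chosen with earlier results of these data known. Members were taken at an unadjusted p under 0.05 in both tests. The planned rule for named genes, up to 12 genes per direction past the adjusted threshold in both ranked by the smaller change, found none, so genes were named after their values were seen. The HEK293 and chromatin files were not used here. The 3 E7 deletion libraries of 1 HCT116 clone and the day C controls gave values only.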

Additional observations from a re-analysis of the deposited data

Results flagged for a closer look

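Among the 4 control clones over days A and B, control clone 4 stood apart for 3 genes. Chance does this for about 1 in 20 groups, so some of many genes would stand apart by chance alone. HAS3 was at 228.8 CPM in control clone 4 and at 146.2 to 153.5 CPM in the other 3. TSPAN14 was at 146.4 CPM in control clone 4 and at 118.8 to 123 CPM in the others. C6orf132 was at 31.58 CPM in control clone 4 and at 24.55 to 24.73 CPM in the others. In data outside the comparisons, the libraries of the E7 deletion clone (another distal element, 1 HCT116 clone on days A, B and C) had levels far above every control library of those days for TRHDE, TRHDE-AS1 and EHF, which were higher in both 18q deletions. Other members higher in both 18q deletions went either way in the E7 clone. DSC3 and CDK6, among others, lay above the 12 control libraries in every E7 library. TSPAN14, MGLL, HAS3 and LGMN lay below all 12 in every E7 library. TSPAN14 had 61.1 to 72.3 CPM there, and MGLL 1.14 to 2.44 CPM. Neither direction was counted over all genes. The lowest E7 library had 9.42 CPM of TRHDE, against 0.1865 to 1.246 CPM in the 12 control libraries. It had 5.658 CPM of TRHDE-AS1, against 0.08491 to 0.9185 CPM, and 138.9 CPM of EHF, against 6.283 to 52.22 CPM.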

How the results depend on the processing

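The 18qE test had 2 clones a side and the 18qNE test 3 against 4, so the calls turn on single clones. In each of the 2 deletions alone, edgeR called 0 genes. With DESeq2 the calls were 20 (18qE) and 13 (18qNE), 2 alike in both, 12 for the joint mean (6 of them at least 1 in both) and 1 for the difference. Without a filter on low counts, 16 (18qNE), 27 for the mean (9 at least 1 in both), 6 for the difference and 17 opposite genes by unadjusted p were found. With control clones 3 and 4 only, the joint mean gave 0 (0 at least 1 in both) and the opposite genes were 0. Single libraries with a day term gave 3 in 18qNE. The samples share only a number, since same-numbered clones did not deviate together (r of 0.04 in 18qE and -0.19 to 0.09 in 18qNE). With the replicate number as a block, the joint mean gave 0 (0 at least 1 in both) and 15 opposite genes. Of the alternatives added after the data were seen, control clone 3 alone gave 4 in 18qNE, 3 for the difference and 0 at least 1 in both, and day A alone gave 1 gene at least 1 in both and 8 opposite genes. RLE factors moved none of these counts.

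Leaving out each clone in turn gave 0 to 132 calls in 18qE, 0 to 1 in 18qNE, 0 alike, 0 opposite, 0 to 3 for the joint mean (0 to 2 at least 1 in both), 0 to 1 for the difference, and 28 to 90 alike and 1 to 21 opposite genes by unadjusted p. With 1 18qE clone left out, the lone clone is assumed to vary like its controls, and the 107 and 132 calls found then rest on the 2 control libraries. Signs turned for values near 0. For 18qE these were SMAD7 at 0.017 without clone 1 (-0.0683 to 0.017 over all clones left out in turn); CTIF at -0.1944 without clone 2 and -0.0048 without the day D library labelled control clone 1 (highest 0.2935); DYM at -0.0194 without clone 2 (highest 0.0762); and SMAD2 at -0.0761 without clone 2 (highest 0.1664). For 18qNE they were SMAD4 at -0.0073 with control clone 3 only and -0.0276 without clone 1 (highest 0.1299), SMAD2 at -0.0306 without clone 1 (highest 0.2031), and DYM at 0.0912 without clone 3 (lowest -0.3863). With day A only, SLC1A3 was at -0.0098 and MT2A at 0.02. The cause of these changes was not tested.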

Other observations

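Chromosome 18, whose long arm both elements are named after, had the highest median change of 23 chromosomes in both deletions, over 188 tested genes. The medians were 0.08 for 18qE and 0.08 for 18qNE, and the next chromosome was at 0.04 and 0.07. It was not the highest without 18qE clone 1, 18qE clone 2 or the day D library labelled control clone 1 (18qE medians of 0.05, 0.03 and 0.05), and without 18qNE clone 1, 18qNE clone 2 or control clone 3 (18qNE medians of 0.05, 0.07 and 0.05). Nor was it with control clone 3 as the only 18qNE control (0.10). By library, the median of chromosome 18 minus that of all genes was 0.03 and 0.05 in the 18qE clones, against -0.009 and 0.009 in the day D controls. It was 0.10, 0.03 and 0.05 in the 18qNE clones, against -0.09 to 0.06 in the controls of days A and B, so the 18qNE groups overlapped. The run of 31 neighbouring genes with the largest shared median was also on chromosome 18, from CEP192 to B4GALT6, at 0.17 and 0.19. It was chosen after its values were seen. The members DSC3 and RNF165, a ubiquitin ligase gene, lie on this chromosome. They were 2 of the 51 members placed, beside 188 of the 13900 genes tested in both that were placed. Chromosomes 1 and 16 held 5 members each. RNF165 had 7.39 and 10.2 CPM in the 18qE clones, against 5.66 and 5.62 CPM in the day D controls, and 9.05, 7.60 and 14.3 CPM in the 18qNE clones, against 4.48, 6.66 and 8.58 CPM in theirs (lowest, median and highest). The run of 31 genes with the largest 18qE median, on chromosome 1 from HEATR1 to PGBD2, was at 0.46 in 18qE and 0.02 in 18qNE. The run with the largest 18qNE median in size, on chromosome 8 from PTP4A3 to LINC02878, was at -0.16 in 18qE and -0.29 in 18qNE.

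The E7 clone gave further values for genes named above. DSC3 was at 30.6 to 36.9 CPM in its 3 libraries, and DNAH2 at 0.0871 to 0.772 CPM. SLC2A1 was at 362 to 447 CPM, and HAS3 at 74.7 to 104 CPM. The control libraries of day C, which entered no test, had 4.08 to 11.6 CPM of DSC3, 1.53 to 4.47 CPM of DNAH2, 218 to 357 CPM of SLC2A1 and 118 to 195 CPM of HAS3.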
